A study of Mus musculus with 9 samples.

Results

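Genes of glycolysis and of the cell's response to low oxygen were examined in cultured adipose-derived stem cells (ASCs) of the mouse. A list of 36 gene symbols was matched by name to the deposited count table, and it found 37 of the 54532 gene entries because Aldoa has a second, short entry (ENSMUSG00000114515) beside its main one (ENSMUSG00000030695). The list was taken by function: glucose uptake and priming, the phosphofructokinase step, lower glycolysis, lactate and pyruvate handling, the hypoxia-inducible factors (HIFs) with their oxygen sensors, and target genes of the HIFs. All 37 entries passed the filter on low counts.

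Glycolysis splits glucose into pyruvate and yields ATP without oxygen, and lactate dehydrogenase turns pyruvate into lactate when the cell ferments. At normal oxygen the prolyl hydroxylases Egln1 and Egln3 mark HIF alpha subunits, the von Hippel-Lindau protein Vhl then directs their destruction, and at low oxygen the subunits Hif1a and Epas1 (also called HIF-2 alpha) persist, pair with Arnt and turn on genes of glucose use, pH balance and blood vessel growth. Since HIFs are controlled mainly through protein stability, a transcript level says nothing directly about the amount of active factor.

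Transcripts of ASCs from 3 fat depots of C57BL/6 mice were measured by bulk RNA-seq: subcutaneous (Sub-ASCs), abdominal (Ab-ASCs) and perivascular (PVASCs). Each depot had 3 libraries, 9 in all. The cells had been released from tissue with collagenase and dispase, grown in stem cell medium and harvested at passages 3 to 6. None of the groups carried a transgene or received a treatment or a low-oxygen exposure according to the labels, and neither the oxygen tension nor the density of the cultures is given, nor whether the 3 libraries of a depot came from separate animals or cultures. The p-values therefore measure only the spread between these libraries, which may be technical.

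Libraries held 20524173 to 29881036 counted reads. Glycolysis and hypoxia response genes took 1.30 to 1.38% of the reads in Sub-ASCs, 1.26 to 1.44% in Ab-ASCs and 1.09 to 1.12% in PVASCs. Mitochondrial reads also moved with the depot, at 0.890 to 1.09%, 0.580 to 0.824% and 1.28 to 1.36% of the reads in the same order, and Ab-ASC replicate 1 had both the lowest mitochondrial share and the highest share of these genes. The 7 ASC surface markers had reads in every library, and their summed level, given as CPM (reads scaled to a common library size), was 6310 to 6341 in Sub-ASCs, 3121 to 3290 in Ab-ASCs and 3840 to 3975 in PVASCs. They did not move together. Against Sub-ASCs, Ly6a (Sca-1) fell by 6.56 in Ab-ASCs and 4.2 in PVASCs on the log2 scale, Pdgfra fell by 2.61 and 3.03 and Nt5e fell by 1.12 and 2.46, whereas Eng, Cd44 and Itgb1 rose in both and Thy1 fell in Ab-ASCs and rose in PVASCs. Other gene lists also moved with the depot. Proliferation genes (12) summed to 148 to 154, 1065 to 1124 and 977 to 990 CPM in the same order, interferon response genes (12) to 2497 to 2582, 124 to 141 and 120 to 122 CPM, and smooth muscle markers (5) to 86.2 to 90.5, 4493 to 5560 and 2733 to 2876 CPM. Endothelial markers (6) summed to 160 to 172, 78.8 to 79.8 and 486 to 488 CPM, blood and macrophage markers (7) to 110 to 111, 82.5 to 103 and 61.1 to 66.6 CPM, mesothelial markers (6) to 1.26 to 2.28, 92.4 to 98.2 and 39.3 to 40.4 CPM with Lrrn4 and Upk1b at 0 in Sub-ASCs, and adipocyte markers (5) to 142 to 155, 35.0 to 38.2 and 45.5 to 48.3 CPM with Lep at 0 in every library. The part of these shares and lists in the results that follow was not tested, and in bulk samples fewer cells of a type and less RNA per cell cannot be told apart.

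HIFs bind DNA at the short core ACGTG, for which GCGTG can stand in, and promoters of 5 genes are printed here because their transcripts stood in different depots: Bnip3 and Slc16a1 were highest in Sub-ASCs, Slc16a3 and Hk2 in Ab-ASCs, and Ldhb in PVASCs. Each sequence is the 250 bases before the RefSeq start on the gene's strand, 5′ to 3′, from GRCm38.p6, with matches to either core on either strand in capitals (a match on the other strand reads CACGT for the former and reads CACGC for the latter). ACGTG overlaps the E-box CACGTG, which other factors bind. The positions are chr7:138909507-138909756 (minus strand) for Bnip3, chr3:104638414-104638663 (plus) for Slc16a1, chr11:120948817-120949066 (plus) for Slc16a3, chr6:82774455-82774704 (minus) for Hk2 and chr6:142507958-142508207 (minus) for Ldhb. An annotated exon covers 13 bases of the Bnip3 and 14 bases of the Slc16a3 stretch, and none of the others.
Bnip3: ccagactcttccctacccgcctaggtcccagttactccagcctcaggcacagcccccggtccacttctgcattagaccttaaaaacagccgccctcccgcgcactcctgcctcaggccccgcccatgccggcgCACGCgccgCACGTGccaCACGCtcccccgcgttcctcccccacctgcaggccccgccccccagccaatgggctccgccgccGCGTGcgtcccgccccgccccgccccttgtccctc
Slc16a1: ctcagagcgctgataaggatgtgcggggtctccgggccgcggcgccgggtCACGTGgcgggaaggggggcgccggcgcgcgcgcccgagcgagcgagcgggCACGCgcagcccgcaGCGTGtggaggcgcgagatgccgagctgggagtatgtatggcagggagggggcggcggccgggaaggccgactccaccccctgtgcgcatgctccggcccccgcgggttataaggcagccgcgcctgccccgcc
Slc16a3: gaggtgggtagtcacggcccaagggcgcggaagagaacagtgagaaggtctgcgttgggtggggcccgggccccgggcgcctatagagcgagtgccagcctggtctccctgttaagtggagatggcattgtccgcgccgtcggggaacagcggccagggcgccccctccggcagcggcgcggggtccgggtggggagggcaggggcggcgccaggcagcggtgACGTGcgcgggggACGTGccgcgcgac
Hk2: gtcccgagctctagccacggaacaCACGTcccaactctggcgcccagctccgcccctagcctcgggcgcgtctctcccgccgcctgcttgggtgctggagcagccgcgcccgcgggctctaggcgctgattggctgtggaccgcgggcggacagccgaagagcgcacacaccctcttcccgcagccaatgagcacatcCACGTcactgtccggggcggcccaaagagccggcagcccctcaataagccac
Ldhb: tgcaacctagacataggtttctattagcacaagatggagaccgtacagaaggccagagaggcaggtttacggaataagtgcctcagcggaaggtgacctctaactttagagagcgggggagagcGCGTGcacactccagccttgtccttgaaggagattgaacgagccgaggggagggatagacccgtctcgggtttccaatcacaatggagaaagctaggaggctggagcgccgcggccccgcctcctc
Matches were counted on each strand, so that the single CACGTG of Bnip3 and of Slc16a1, which reads ACGTG on both strands, counts as 2. Counted in this way Bnip3 held 5 matches in the stretch, Slc16a1 4, Slc16a3 2, Hk2 2 and Ldhb 1. Of all 36 symbols, 34 had a promoter in the RefSeq table and Epas1 and Ndrg1 did not.

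Over windows from 250 bases before to 50 after the start, 26 of 47 windows of these genes (55.3%) held ACGTG, against 19.6% of 32851 windows of all genes, and 38 (80.9%) held either motif, against 43.8%. The windows of the list also had a higher median GC content, 62.7% against 52.7%. The list was taken by function and holds HIF targets, so this difference is no test of the core. Windows of all genes include genes that were not tested, whereas all members passed the filter on low counts. Counted by gene, ACGTG was present for 10 of 16 genes whose mean was highest in Sub-ASCs, 11 of 15 highest in Ab-ASCs and 2 of 3 highest in PVASCs, beside 21.8% of 27025 symbols with a promoter in the table. The core stood before genes highest in each of the depots, and a match describes letters, not binding.

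Each depot had a set of these genes at its highest level. The mean CPM was highest in Sub-ASCs for 18 entries, in Ab-ASCs for 16 and in PVASCs for 3 (Car9, Ldhb and Pfkm), and it was lowest in PVASCs for 22. The ratio of the highest to the lowest depot mean ran from 1.15 for Pfkm to 25.9 for Epas1 with a median of 2.20, and it was over 2 for 19 entries. Sub-ASCs were highest in Epas1 and in 6 of the 8 HIF targets listed outside the glycolytic pathway. Egln3, a HIF target listed with the sensors, was lowest in Sub-ASCs. Ab-ASCs were highest in most of the abundant enzymes of lower glycolysis, many of which are HIF targets too. They were also highest in the glucose transporter Slc2a1 and the lactate exporter Slc16a3.

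**Figure D1:**
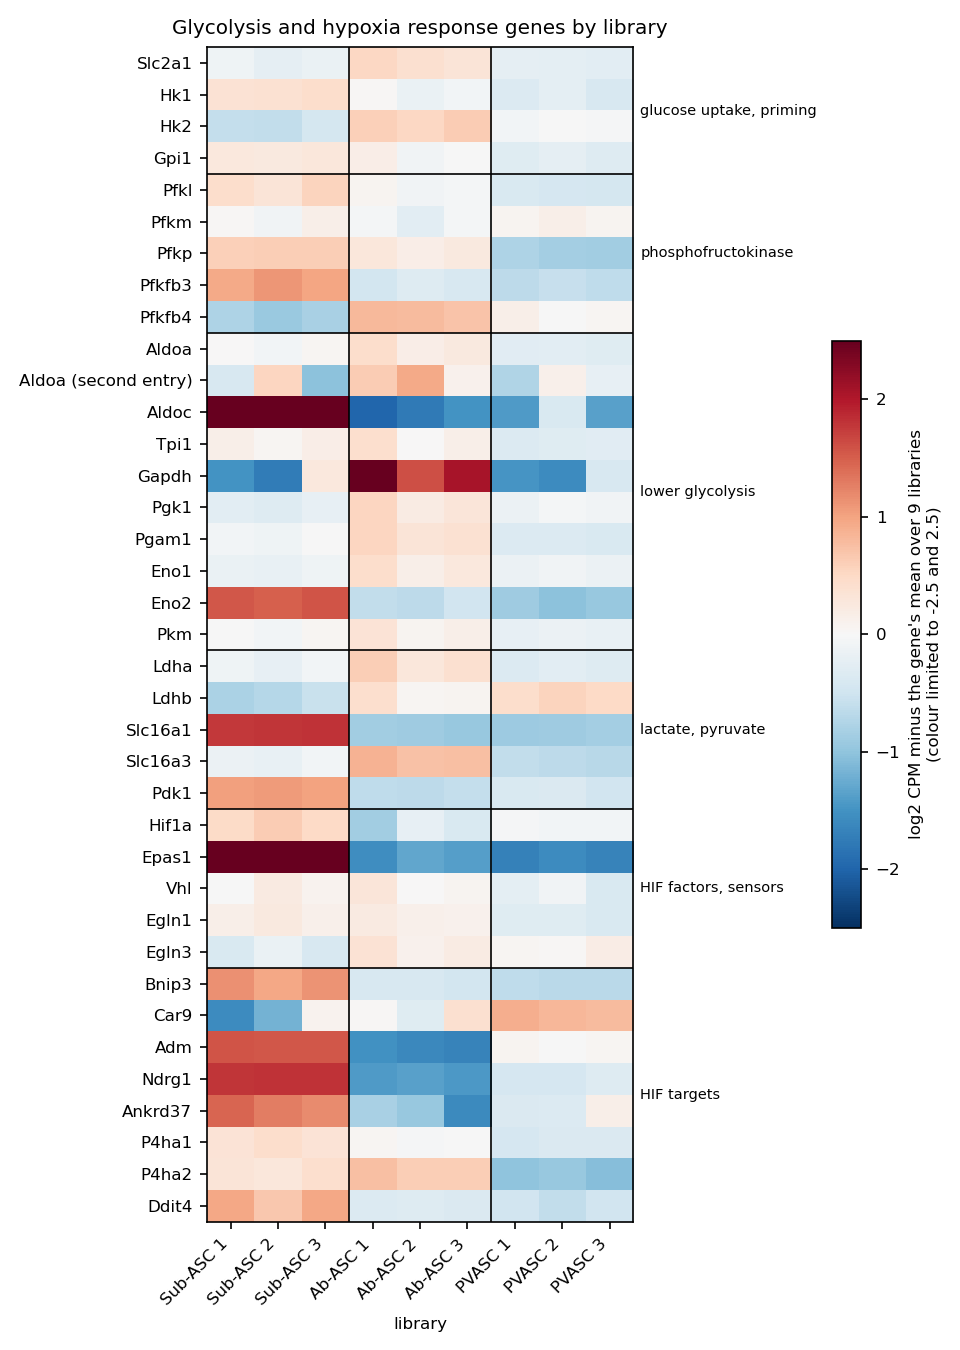
Level of each of the 37 entries (rows, ordered by role) in the 9 libraries (columns), as log2 CPM minus the gene's own mean over the 9 libraries; red is above and blue below that mean, and colours stop at -2.5 and 2.5. Epas1, Aldoc, Adm, Ndrg1, Slc16a1 and Eno2 are red in all 3 Sub-ASC libraries, and most enzymes of lower glycolysis are red in Ab-ASCs and blue in PVASCs.

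The 3 comparisons were fitted with edgeR's quasi-likelihood test on all 9 libraries, with Benjamini-Hochberg adjustment over 16526 genes and a threshold of 0.05. They share groups, so their results are not independent. In PVASCs against Sub-ASCs 31 of the 37 entries were called, 5 higher and 26 lower, beside 70.4% of all genes tested (34.7% higher and 35.7% lower), and their median log2 fold change was -0.51 against -0.01 over all genes. PVASCs against Ab-ASCs gave 31 calls, 7 higher and 24 lower, beside 56.9% of all genes (24.7% and 32.1%), with a median of -0.37 against -0.06. Ab-ASCs against Sub-ASCs also gave 31, 14 higher and 17 lower, beside 75.3% (37% and 38.3%), with a median of -0.02 against -0.03. In a joint test of the 3 depots 35 entries were called beside 84.6% of all genes, and the exceptions were Pfkm and the second Aldoa entry. The 31 calls in each comparison of depots are 83.8% of the entries. When a log2 fold change of 1 or more in size was also required, 15 entries remained for PVASCs against Sub-ASCs beside 32.2% of all genes, 6 for PVASCs against Ab-ASCs beside 15.4%, and 14 for Ab-ASCs against Sub-ASCs beside 37.8%.

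**Figure D2:**
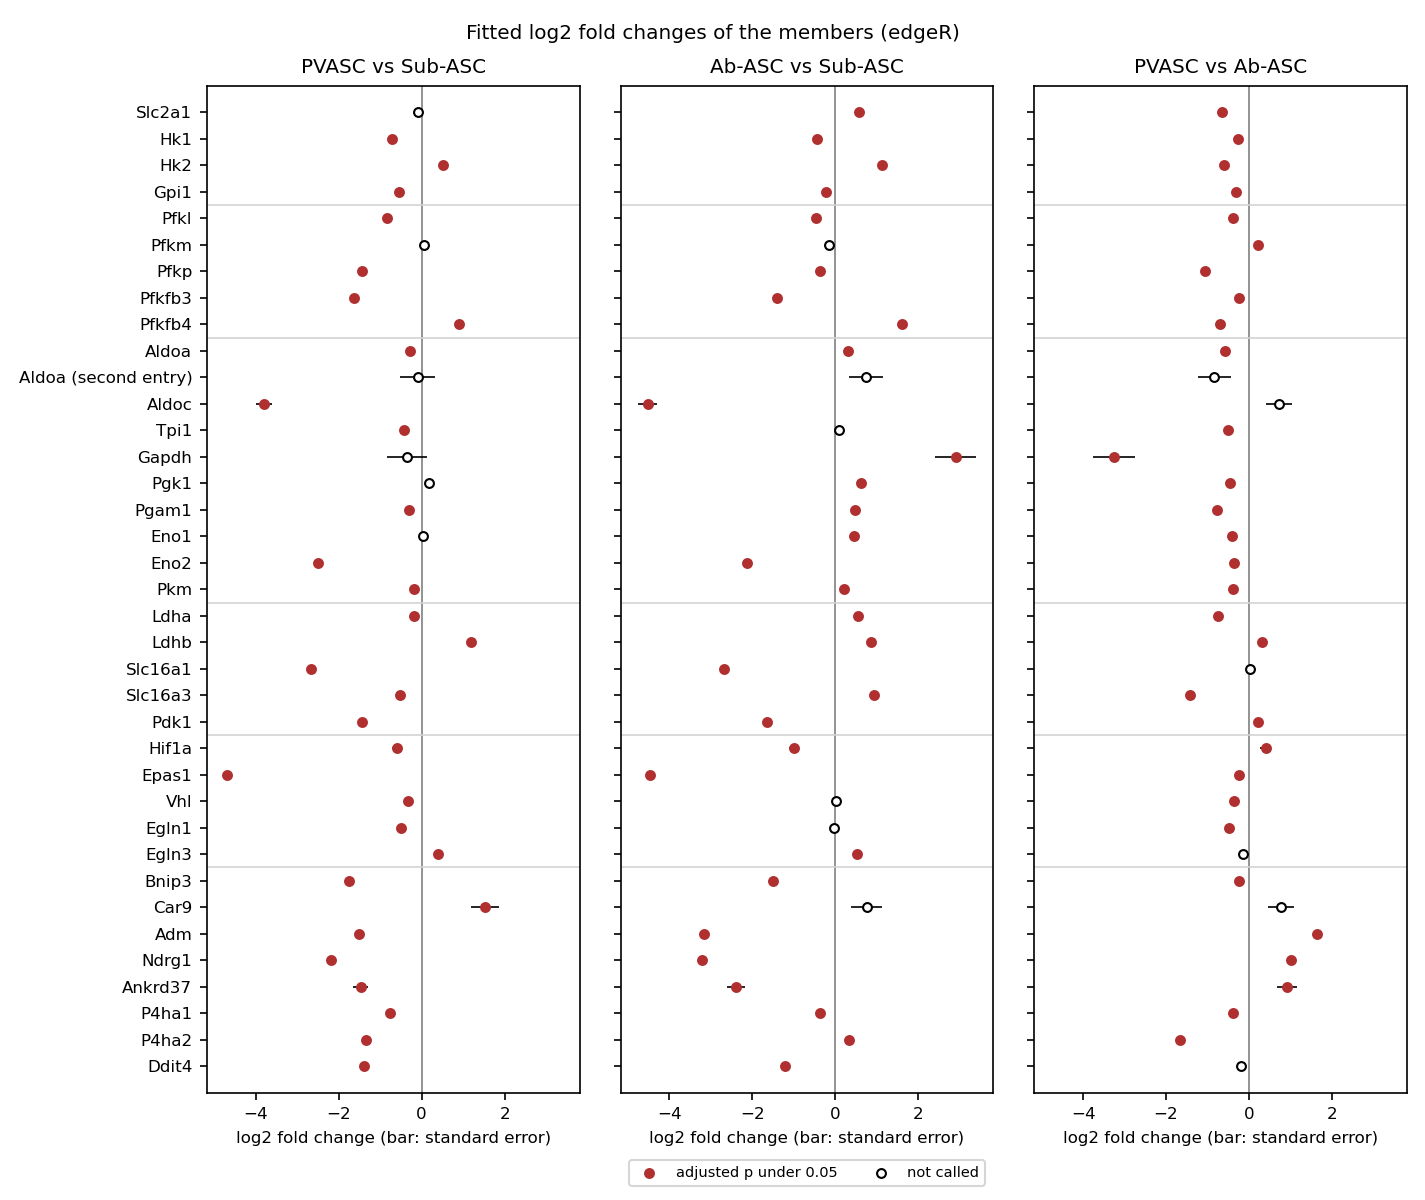
Fitted log2 fold change of each entry (points) with its standard error (bars) in the 3 comparisons, with filled points for an edgeR adjusted p under 0.05. Epas1 and Aldoc lie furthest left in both comparisons with Sub-ASCs, and Gapdh has the widest bars.

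The HIF alpha subunits Hif1a and Epas1 were highest in Sub-ASCs, and Epas1 had the largest ratio between depots of the 37 entries. Epas1 (ENSMUSG00000024140, chromosome 17, 86753907 to 86833410, GRCm38), which encodes HIF-2 alpha, stood at 710, 709 and 721 CPM in the Sub-ASC libraries. It stood at 29.1, 35.1 and 33 CPM in Ab-ASCs and at 26.7, 28.7 and 27.1 CPM in PVASCs. The groups of libraries did not overlap, and the log2 fold change was -4.70 ± 0.07 (SE) for PVASCs and -4.46 ± 0.07 for Ab-ASCs against Sub-ASCs (edgeR adjusted p = 5.47e-14 and 8.03e-14). The smaller PVASC to Ab-ASC difference of -0.24 ± 0.07 was called (edgeR adjusted p = 0.0098), but not when those groups alone were fitted (-0.16).

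Hif1a (ENSMUSG00000021109, chromosome 12), the more widely expressed subunit, stood at 400, 446 and 401 CPM in Sub-ASCs, 155, 248 and 220 CPM in Ab-ASCs and 280, 274 and 272 CPM in PVASCs. Sub-ASCs were highest and no groups overlapped, although Ab-ASC replicate 1 lay well below the other Ab-ASC libraries. The log2 fold change was -0.59 ± 0.13 for PVASCs and -1.0 ± 0.13 for Ab-ASCs against Sub-ASCs, and 0.40 ± 0.13 for PVASCs against Ab-ASCs, where the call was lost without PVASC replicate 1 (0.39) and the value fell to 0.23 without Ab-ASC replicate 1. Per kilobase of gene length (FPKM), Epas1 exceeded Hif1a in Sub-ASCs, 134 against 70.5, and lay under it in Ab-ASCs, 6.11 against 35.3, and in PVASCs, 5.18 against 46.7.

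The sensors moved within a narrow range. Egln1, the main oxygen-sensing prolyl hydroxylase, had a mean of 110 ± 4.83 CPM (SD, n = 3) in Sub-ASCs, 109 ± 4.31 in Ab-ASCs and 77.5 ± 2.14 in PVASCs, and it fell in PVASCs against both other depots, with log2 fold changes of -0.51 ± 0.06 and -0.49 ± 0.06. Egln3, a prolyl hydroxylase that is itself a HIF target, was higher in PVASCs (24.0 ± 1.38 CPM) and Ab-ASCs (26.4 ± 2.35 CPM) than in Sub-ASCs (18.2 ± 1.60 CPM), by log2 fold changes of 0.40 ± 0.09 and 0.53 ± 0.09, while PVASCs and Ab-ASCs overlapped and were not called apart (-0.13, edgeR adjusted p = 0.208). Vhl averaged 35.0 ± 2.88 CPM in Sub-ASCs, 35.5 ± 4.0 in Ab-ASCs and 27.8 ± 2.79 in PVASCs. Its fall in PVASCs against Sub-ASCs of -0.34 ± 0.10 on the log2 scale was called (edgeR adjusted p = 0.00851), though not without PVASC replicate 3 (-0.26). Between Ab-ASCs and Sub-ASCs neither Egln1 nor Vhl was called, and the sign of both differences turned with single libraries. Vhl went from 0.02 to -0.0370 without Sub-ASC replicate 1 and to -0.0714 without Ab-ASC replicate 1, and Egln1 from -0.02 to 0.0206 without Sub-ASC replicate 2 and to 0.00492 without Ab-ASC replicate 3.

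Of the 8 HIF targets outside the glycolytic pathway, 7 fell and 1 rose in PVASCs against Sub-ASCs (all genes: 35.7% lower, 34.7% higher), 6 fell and 1 rose in Ab-ASCs against Sub-ASCs (38.3%, 37%), and 3 fell and 3 rose in PVASCs against Ab-ASCs (32.1%, 24.7%). Egln3, a HIF target counted with the sensors and so outside these 8, rose in both comparisons with Sub-ASCs. Adm encodes adrenomedullin, a secreted peptide that widens blood vessels. It stood at 374, 368 and 366 CPM in Sub-ASCs, 43.7, 41.0 and 39.7 CPM in Ab-ASCs and 132, 125 and 129 CPM in PVASCs, separate levels, with log2 fold changes of -3.16 ± 0.06 for Ab-ASCs and -1.52 ± 0.05 for PVASCs against Sub-ASCs. Ndrg1, a stress-responsive gene linked to differentiation, kept the same order, at 105, 107 and 107 CPM, then 11.4, 11.9 and 11.3, then 22.7, 22.7 and 24.3 CPM. For both genes PVASCs lay above Ab-ASCs, by log2 fold changes of 1.64 ± 0.05 and 1.01 ± 0.06 (edgeR adjusted p = 2.46e-10 and 6.35e-08).

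Bnip3, which directs mitochondria to autophagy and whose promoter is printed above, stood at 240, 212 and 236 CPM in Sub-ASCs, 81.4, 81.8 and 78.5 CPM in Ab-ASCs and 69.2, 67.5 and 67.9 CPM in PVASCs. Sub-ASCs again lay apart, and the PVASC fold change against them was -1.75 ± 0.06 on the log2 scale (edgeR adjusted p = 3.96e-11). Ddit4, an inhibitor of mTOR complex 1, averaged 160 ± 18.5, 68.9 ± 0.611 and 60.7 ± 3.12 CPM in Sub-ASCs, Ab-ASCs and PVASCs, and Ab-ASCs and PVASCs were not called apart, except without Sub-ASC replicate 2 or Ab-ASC replicate 1, with no filter on low counts or with a replicate block (-0.19 in each case). Ankrd37, an ankyrin-repeat gene induced by HIF-1, was low, at 5.34 ± 0.531, 1.02 ± 0.272 and 1.92 ± 0.403 CPM. On the opposite strand it overlaps Ufsp2, which held 9036 reads against 643 for Ankrd37, and no source used here states whether reads were counted by strand.

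The prolyl 4-hydroxylase subunits P4ha1 and P4ha2, which modify collagen, did not move together. P4ha1 declined from 533 ± 17.8 CPM in Sub-ASCs to 413 ± 12.6 in Ab-ASCs and 315 ± 6.25 in PVASCs, and each step was called. P4ha2 was highest in Ab-ASCs, at 242, 218 and 219 CPM, intermediate in Sub-ASCs, at 179, 174 and 191 CPM, and lowest in PVASCs, at 71.4, 74.3 and 68.5 CPM. Its fold change for PVASCs was -1.66 ± 0.06 against Ab-ASCs and -1.35 ± 0.06 against Sub-ASCs on the log2 scale.

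Car9, a membrane carbonic anhydrase that balances pH, was the 1 target of the 8 that rose in PVASCs against Sub-ASCs. It was scarce, with 9, 13 and 32 reads in Sub-ASCs, 22, 21 and 34 in Ab-ASCs and 71, 60 and 63 in PVASCs, which is 0.386, 0.511 and 1.22, then 1.18, 0.933 and 1.51, then 2.17, 2.03 and 2.0 CPM. Gm12454 on the opposite strand held 108 reads against 325 for Car9. PVASC libraries lay above all others, and the log2 fold change against Sub-ASCs was 1.52 ± 0.33 (edgeR adjusted p = 0.00121). Against Ab-ASCs it was 0.77 ± 0.31 and missed the threshold (edgeR adjusted p = 0.0512). It passed without Sub-ASC replicate 1 or 3 (0.77 in either case) or Ab-ASC replicate 3 (0.97), with other scalings, with no filter on low counts, with a replicate block and with those groups alone. Sub-ASC replicate 3 held most of the Sub-ASC reads, and without it the Ab-ASC difference from Sub-ASCs, 0.75 ± 0.37 and not called, became 1.41 and was called, as it was with no filter on low counts (0.76), and without Sub-ASC replicate 1 it became 0.47. At these depths 3 reads correspond to 0.0916 to 0.161 CPM, which covers counting error only.

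**Figure D3:**
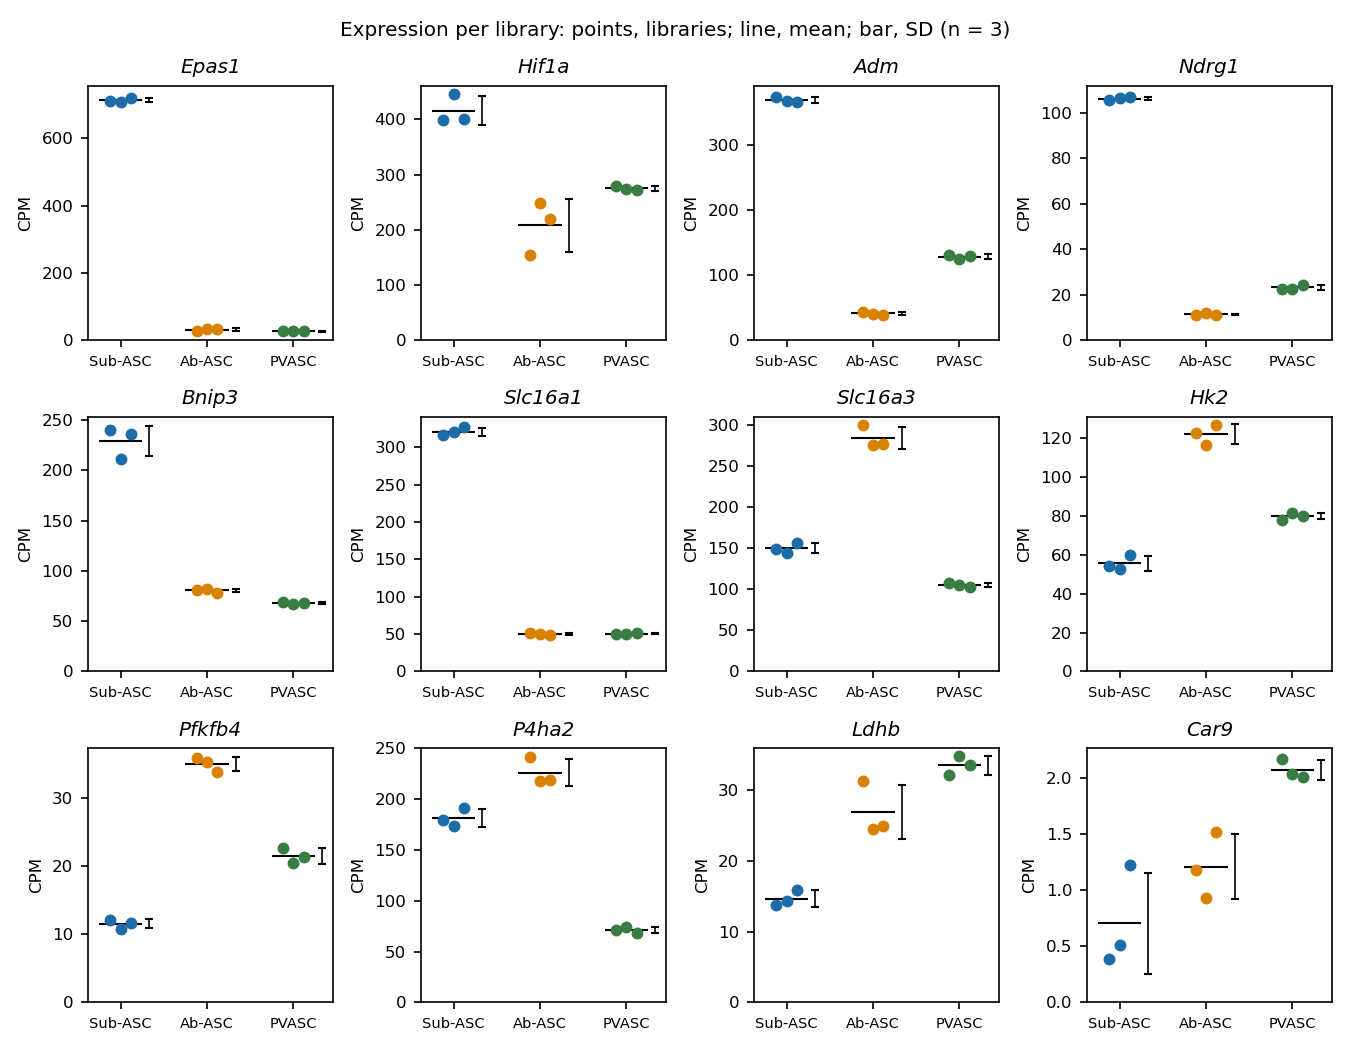
CPM (vertical axes from 0) of 12 genes in each library, with a line at the group mean and a bar for the SD (n = 3). Epas1, Adm, Ndrg1, Bnip3 and Slc16a1 are highest in Sub-ASCs, Slc16a3, Hk2, Pfkfb4 and P4ha2 in Ab-ASCs, and Ldhb and Car9 in PVASCs.

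At glucose entry and priming, Hk2 was lowest and Hk1 highest in Sub-ASCs. Slc2a1 encodes GLUT1, the basal glucose transporter, and stood at 230, 213 and 222 CPM in Sub-ASCs, 356, 326 and 308 CPM in Ab-ASCs and 211, 210 and 206 CPM in PVASCs. Ab-ASCs were above both others, by 0.58 ± 0.06 against Sub-ASCs on the log2 scale, while PVASCs and Sub-ASCs were not called apart (-0.08 ± 0.06, edgeR adjusted p = 0.219). Hk2, the inducible hexokinase, stood at 54.0, 52.9 and 59.7 CPM in Sub-ASCs, 122, 117 and 127 CPM in Ab-ASCs and 78.1, 81.2 and 79.8 CPM in PVASCs. It rose by 1.13 ± 0.06 in Ab-ASCs and by 0.52 ± 0.06 in PVASCs against Sub-ASCs on the log2 scale. Hk1, the constitutive hexokinase, declined across Sub-ASCs, Ab-ASCs and PVASCs, with 170 ± 4.73, 125 ± 8.35 and 104 ± 5.76 CPM. Gpi1, which makes fructose 6-phosphate, also declined in that order, with 552 ± 5.27, 469 ± 42.3 and 379 ± 14.6 CPM.

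Phosphofructokinase commits sugar to glycolysis, and Pfkfb3 and Pfkfb4 make and break fructose 2,6-bisphosphate, its activator. Pfkfb3, the form with mostly kinase activity, was highest in Sub-ASCs, at 115, 129 and 118 CPM, against 43.5, 47.4 and 45 CPM in Ab-ASCs and 37.6, 39.9 and 38.4 CPM in PVASCs. Pfkfb4 was lowest there, with 12.1, 10.8 and 11.7 CPM in Sub-ASCs, 35.8, 35.3 and 33.8 CPM in Ab-ASCs and 22.7, 20.4 and 21.3 CPM in PVASCs. In PVASCs against Sub-ASCs the log2 fold changes were -1.64 ± 0.06 and 0.90 ± 0.07 (edgeR adjusted p = 1.37e-10 and 2.81e-07).

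Among the subunits of the enzyme itself, Pfkp (platelet type) averaged 149 ± 1.72 CPM in Sub-ASCs, 115 ± 4.49 in Ab-ASCs and 55.0 ± 1.99 in PVASCs, and Pfkl (liver type) 282 ± 23.1, 205 ± 11.9 and 157 ± 3.47 CPM. Both were lowest in PVASCs, with log2 fold changes against Sub-ASCs of -1.44 ± 0.05 and -0.84 ± 0.07. Pfkm (muscle type) varied least of all entries, with 30.8 ± 2.53, 27.9 ± 2.43 and 32.2 ± 0.905 CPM, and its edgeR adjusted p in the joint test of the depots was 0.0798. PVASCs against Ab-ASCs alone gave 0.21 ± 0.08 for it (edgeR adjusted p = 0.0454), a call lost without Sub-ASC replicate 1, Ab-ASC replicate 2 or 3, or any PVASC replicate, at values of 0.13 to 0.24, and with no filter on low counts. With at least 10 reads in every library required, Pfkm was called in the joint test and in Ab-ASCs against Sub-ASCs (-0.19). Pfkp and Pfkm overlap Pitrm1 and Senp1 on the opposite strand, and these genes held 118% and 121% of the reads of the member.

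Lower glycolysis holds the most abundant transcripts of the list, and except for Eno2 and Aldoc their means were highest in Ab-ASCs, though for Tpi1 and the second Aldoa entry the difference from Sub-ASCs was not called. Pkm, pyruvate kinase, stood at 2344, 2242 and 2452 CPM in Sub-ASCs, 2996, 2473 and 2620 CPM in Ab-ASCs and 2035, 2128 and 2061 CPM in PVASCs. Depots did not overlap, but the range within Ab-ASCs, where replicate 1 was highest, was larger than the step between Sub-ASCs and PVASCs. The log2 fold change was 0.20 ± 0.07 for Ab-ASCs and -0.18 ± 0.07 for PVASCs against Sub-ASCs (edgeR adjusted p = 0.0143 and 0.0281). The former was lost without Sub-ASC replicate 2 (0.18), and without Ab-ASC replicate 1 it was 0.12. The latter was lost with upper-quartile scaling, with DESeq2, and without Sub-ASC replicate 1 or 3 or any PVASC replicate, at values of -0.18 to -0.12.

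Ab-ASCs were also highest in Pgk1, phosphoglycerate kinase, at 750 ± 33.2, 1149 ± 133 and 843 ± 27.5 CPM in Sub-ASCs, Ab-ASCs and PVASCs. They were highest too in Pgam1, phosphoglycerate mutase, at 488 ± 16.4, 680 ± 53.8 and 397 ± 5.68 CPM, in Eno1, the common enolase, at 1533 ± 43.4, 2081 ± 205 and 1561 ± 39.2 CPM, and in Aldoa, the main aldolase, at 1282 ± 55.2, 1578 ± 148 and 1063 ± 15.9 CPM. All 4 rose in Ab-ASCs against Sub-ASCs by 0.30 to 0.62 on the log2 scale and fell in PVASCs against Ab-ASCs. Between PVASCs and Sub-ASCs, Aldoa and Pgam1 fell by 0.27 ± 0.06 and 0.30 ± 0.06, while Pgk1 (0.17 ± 0.07, edgeR adjusted p = 0.0562) and Eno1 (0.03 ± 0.06, adjusted p = 0.732) were not called, although Pgk1 passed without Ab-ASC replicate 1 or 2 (0.17 in either case), with other scalings, with no filter on low counts and with those groups alone. Tpi1, triose phosphate isomerase, averaged 634 ± 25, 671 ± 101 and 473 ± 11.2 CPM and fell in PVASCs against both. Its Ab-ASC libraries at 784, 587 and 644 CPM spanned the Sub-ASC libraries, and the difference of 0.08 ± 0.09 became -0.0388 without Ab-ASC replicate 1 and 0.18, then called, without replicate 2.

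The minor isozymes Eno2 and Aldoc were highest in Sub-ASCs. Eno2, the neuronal enolase, stood at 134, 129 and 137 CPM in Sub-ASCs, 29.9, 29.1 and 32.8 CPM in Ab-ASCs and 24.7, 22.5 and 23.8 CPM in PVASCs. Aldoc, the brain-type aldolase, stood at 15.1, 14.4 and 15.5 CPM in Sub-ASCs, whereas Ab-ASCs held only 10, 14 and 17 reads (0.536, 0.622 and 0.757 CPM) and PVASCs 26, 48 and 26 reads (0.794, 1.63 and 0.826 CPM). The log2 fold changes of PVASCs against Sub-ASCs were -2.49 ± 0.07 for Eno2 and -3.80 ± 0.19 for Aldoc (edgeR adjusted p = 4.63e-12 and 1.73e-09). The second Aldoa entry held 8 to 27 reads a library, 151 in all, beside 412 for Fam57b on the opposite strand. It overlapped between all depots and was called in none of the comparisons, except in Ab-ASCs against Sub-ASCs without Sub-ASC replicate 2 (1.29).

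Summed over the 16 entries from hexokinase to pyruvate kinase that encode pathway enzymes, the level was 8431, 8127 and 8801 CPM in Sub-ASCs, 11365, 9270 and 9915 CPM in Ab-ASCs and 7153, 7428 and 7222 CPM in PVASCs. The 3 ranges did not overlap, and they remained apart without Gapdh. The summed level was highest in Ab-ASCs and lowest in PVASCs, and such a sum is carried by its few most abundant genes. Ab-ASC replicate 1 gave the highest sum. Ab-ASC libraries also differed most among themselves, with a median CV over all 37 entries of 7.91% against 4.42% in Sub-ASCs and 3.27% in PVASCs, beside 11.7%, 7.24% and 5.52% over all genes tested.

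Gapdh (ENSMUSG00000057666, chromosome 6, 125161715 to 125166467, minus strand), glyceraldehyde 3-phosphate dehydrogenase and a common reference gene, was far lower than its neighbours in the pathway and did not repeat between libraries. It held 413, 376 and 1567 reads in Sub-ASCs, 6236, 3430 and 4659 in Ab-ASCs and 587, 494 and 1186 in PVASCs. Replicate 3 of Sub-ASCs and of PVASCs stood well above the other libraries of its depot. On the opposite strand Gapdh overlaps Iffo1, which held 4587 reads in all against 18948 for Gapdh, and counting by strand is not stated. The CV within a depot, 81.8%, 40.4% and 48.8%, was the highest of all entries in each, and Ab-ASCs exceeded Sub-ASCs by 2.91 ± 0.50 on the log2 scale (edgeR adjusted p = 0.00018). PVASCs and Sub-ASCs were not called apart, at -0.35 ± 0.49, which became 0.57 without Sub-ASC replicate 3 and was called with no filter on low counts (-0.35).

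The table lists 70 other genes whose transcripts match Gapdh at 95% identity or more over at least 500 bases, 67 of them pseudogenes. They held 108480 reads against 18948 on Gapdh, and Gm13394, a processed pseudogene on chromosome 2 (28933610 to 28934609, minus strand), alone held 98510. Its reads were nearly even across libraries, 9958, 11178 and 11815 in Sub-ASCs, 11187, 10490 and 11485 in Ab-ASCs and 11216, 10407 and 10774 in PVASCs. Gapdh itself took from 3.09% of the pooled reads in Sub-ASC replicate 2 to 33.3% in Ab-ASC replicate 1. With the reads of all copies added, the level became 468, 477 and 535 CPM in Sub-ASCs, 1007, 678 and 785 CPM in Ab-ASCs and 403, 414 and 421 CPM in PVASCs, the CV fell to 7.42%, 20.4% and 2.21%, and the mean was highest in Ab-ASCs and lowest in PVASCs. On this basis Ab-ASCs exceeded Sub-ASCs by 0.74 ± 0.11 and PVASCs lay at -1.0 ± 0.11 against Ab-ASCs on the log2 scale, while PVASCs against Sub-ASCs (-0.26 ± 0.11) missed the threshold (edgeR adjusted p = 0.0573). How the authors treated reads that align to several places is not given in the sources used here, so the Gapdh row is uncertain as a measure of its transcript. For each other member, near-identical genes held at most 3.65% of its own reads.

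**Figure D4:**
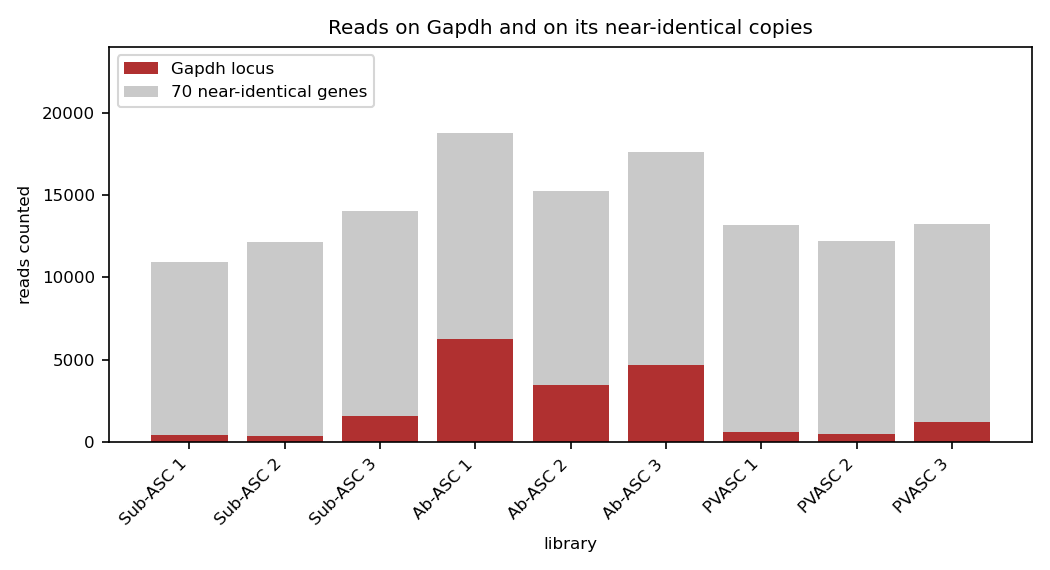
Reads counted on Gapdh (red) and on its 70 near-identical genes (grey, stacked) in each library, with the vertical axis from 0. The grey part stays between 10495 and 12959 reads in every library, while the red part runs from 376 to 6236.

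The lactate dehydrogenase subunits and the lactate transporters were each highest in different depots. Ldha, the lactate dehydrogenase subunit that favours lactate formation, stood at 1430, 1326 and 1472 CPM in Sub-ASCs, 2341, 1861 and 2011 CPM in Ab-ASCs and 1211, 1283 and 1229 CPM in PVASCs. Ab-ASCs were higher than Sub-ASCs by 0.56 ± 0.07 on the log2 scale, and PVASCs stood at -0.18 ± 0.07 against Sub-ASCs, a difference close to the threshold (edgeR adjusted p = 0.044). That call was lost with RLE or upper-quartile scaling and with DESeq2. It was also lost without Sub-ASC replicate 1 or 3, Ab-ASC replicate 3 or any PVASC replicate. The values in these settings were -0.19 to -0.12. Ldhb, the heart-type subunit, ran from 13.7, 14.4 and 16 CPM in Sub-ASCs through 31.4, 24.5 and 24.9 CPM in Ab-ASCs to 32.1, 34.9 and 33.5 CPM in PVASCs. It rose by 1.19 ± 0.10 in PVASCs against Sub-ASCs on the log2 scale, and by 0.32 ± 0.10 against Ab-ASCs, the latter lost without Ab-ASC replicate 3 (0.26) or PVASC replicate 2 (0.29).

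Slc16a1 encodes MCT1, which carries lactate in either direction, and Slc16a3 encodes MCT4, the exporter of glycolytic cells. Slc16a1 stood at 316, 320 and 327 CPM in Sub-ASCs, 50.7, 50.6 and 48.7 CPM in Ab-ASCs and 49.8, 50.6 and 51.6 CPM in PVASCs, so that Sub-ASCs were apart and the others overlapped. Slc16a3 stood at 150, 144 and 157 CPM, then 300, 276 and 278 CPM, then 108, 105 and 103 CPM in the same depots. Against Sub-ASCs, Slc16a1 fell by 2.68 ± 0.05 in Ab-ASCs and by 2.66 ± 0.05 in PVASCs on the log2 scale, whereas Slc16a3 was 0.92 ± 0.06 higher in Ab-ASCs and fell by 0.51 ± 0.06 in PVASCs. The printed stretch of Slc16a1 held ACGTG at a single place, as the palindrome CACGTG, and that of Slc16a3 held it at 2 separate places. Pdk1, the kinase that shuts off pyruvate dehydrogenase, was highest in Sub-ASCs, with 111 ± 1.99, 35.1 ± 0.812 and 40.9 ± 1.64 CPM.

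Ratios of paired genes within a library, in which library scaling cancels, separated the depots in nearly all pairs. How often other gene pairs do so was not computed, and 56.9%, 70.4% and 75.3% of all genes were called between depots. For 9 pairs and 3 comparisons, 25 of 27 exact permutation tests (two-sided) gave p = 0.1, the smallest that 3 libraries against 3 allow, so none can pass 0.05 and the smallest adjusted value is 0.108. The 2 others were Eno2/Eno1 between PVASCs and Ab-ASCs (exact permutation p = 0.6) and Pfkp/Pfkl between Ab-ASCs and Sub-ASCs (exact permutation p = 0.4), in which libraries overlapped. Per gene length, Slc16a3 made up 28.1% ± 0.663 (SD, n = 3) of the transporter pair in Sub-ASCs, 82.6% ± 0.586 in Ab-ASCs and 63.4% ± 1.02 in PVASCs. Hk2 made up 31.8% ± 0.924, 58.3% ± 1.34 and 52.4% ± 1.16 of the hexokinase pair. Epas1 made up 65.6% ± 1.53 of the Epas1 and Hif1a pair in Sub-ASCs, 15.0% ± 1.94 in Ab-ASCs and 9.99% ± 0.427 in PVASCs.

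The minor isozymes were a small part of their pairs in every depot. Eno2 made up 9.03% ± 0.104 of the Eno1 and Eno2 pair in Sub-ASCs, 1.66% ± 0.177 in Ab-ASCs and 1.70% ± 0.119 in PVASCs, and Aldoc 1.03% ± 0.00512, 0.0365% ± 0.00838 and 0.0903% ± 0.0379 of the aldolase pair. PVASCs stood out in the share of Ldhb, 5.39% ± 0.0790 against 2.15% ± 0.145 in Sub-ASCs and 2.66% ± 0.107 in Ab-ASCs, and in that of P4ha2, 13.0% ± 0.487 against 18.3% ± 1.17 and 26.5% ± 0.608. They also lay apart in both pairs with Pfkl. The Pfkm share was 29.1% ± 0.767 against 17.9% in Sub-ASCs and 21.4% ± 1.02 in Ab-ASCs. The Pfkp share was 14.8% ± 0.187 against 20.9% ± 1.38 and 21.8% ± 0.461.

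**Figure D5:**
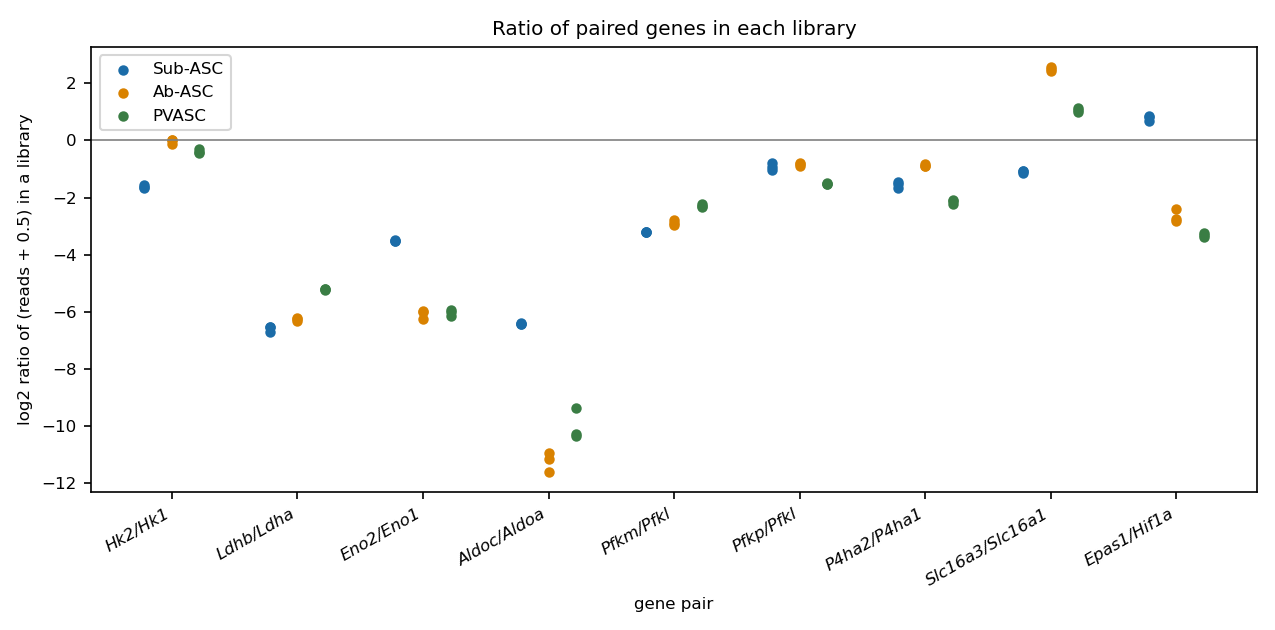
Log2 ratio of the reads of 2 paired genes, with 0.5 added to each, in every library (points, coloured by depot); 0 marks equal reads. Slc16a3/Slc16a1 and Hk2/Hk1 are lowest in Sub-ASCs and highest in Ab-ASCs, and Epas1/Hif1a, Eno2/Eno1 and Aldoc/Aldoa are highest in Sub-ASCs.

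By level per kilobase of gene length, Pkm, Ldha, Aldoa and Pgk1 led the order in every depot. In Sub-ASCs the means were 469 FPKM for Pkm, 441 for Aldoa, 426 for Ldha and 334 for Pgk1, and in Ab-ASCs they were 626 for Ldha, 542 for Aldoa, 539 for Pkm and 512 for Pgk1. In PVASCs Pkm was first with 415 FPKM, and Pgk1 (376 ± 12.3, SD), Ldha (375 ± 11.3) and Aldoa (365 ± 5.46) lay close together. Adm, at 228 FPKM in Sub-ASCs, was as abundant there as Tpi1 at 230, and dropped to 25.6 FPKM in Ab-ASCs. Car9 lay at the low end, from 0.306 FPKM in Sub-ASCs to 0.897 in PVASCs.

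Related genes were taken from lists drawn up by pathway. Among 27 tested genes of a further hypoxia response list, 20 fell and 6 rose in PVASCs against Sub-ASCs, with a median log2 fold change of -0.82, beside 35.7% of all genes lower, 34.7% higher and a median of -0.01. In Ab-ASCs against Sub-ASCs 14 fell and 11 rose, with a median of -0.20, beside 38.3% and 37% of all genes and a median of -0.03, and in PVASCs against Ab-ASCs 16 fell and 6 rose, with a median of -0.49, beside 32.1% and 24.7% and a median of -0.06. The genes with the largest changes moved in different ways. Nos2, the inducible nitric oxide synthase, stood at 224, 247 and 232 CPM in Sub-ASCs and at no more than 0.858 CPM in any other library. It is also induced by interferon, and the interferon response list was likewise highest in Sub-ASCs, a relation that was not tested. Edn1, the vessel-constricting peptide endothelin 1, was highest in PVASCs, at 108, 107 and 107 CPM against 14.3 to 16.1 in Sub-ASCs and 21.7 to 24.8 in Ab-ASCs.

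Of 14 other regulators of the HIF pathway, 7 fell and 3 rose in PVASCs against Sub-ASCs, and 5 fell and 7 rose in Ab-ASCs against Sub-ASCs. The 10 called in the former are 71.4% of the list, close to the 70.4% of all genes, and the 12 in the latter are 85.7%, beside 75.3%. Arnt, the shared partner of the HIF alpha subunits, stood at 150, 155 and 145 CPM in Sub-ASCs, at 64.9, 63.9 and 65.3 CPM in Ab-ASCs and at 65.2, 63.9 and 64.9 CPM in PVASCs, a log2 fold change of -1.21 ± 0.05 for either against Sub-ASCs. Cited2, which competes with HIF for its coactivators, was lowest in Sub-ASCs, at 31.8, 37.2 and 33.3 CPM in Sub-ASCs, 172, 169 and 168 CPM in Ab-ASCs and 133, 126 and 131 CPM in PVASCs. Hif3a, whose products can restrain HIF activity, was low in all depots and highest in Ab-ASCs, at 1.74 to 2.36 CPM.

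In a list of 27 other glycolytic isozymes and transporters, 22 genes were tested, of which 12 fell and 6 rose in PVASCs against Sub-ASCs, beside 35.7% of all genes lower and 34.7% higher. Pgk2 and Pklr had no read in any library. Eno3, the muscle enolase, rose from 4.67 to 5.07 CPM in Sub-ASCs to 16.7 to 18.1 in Ab-ASCs and 25.5 to 26.3 in PVASCs, opposite to Eno2. Slc2a6 and Slc2a12, lesser glucose transporters, were lowest in PVASCs, by log2 fold changes of -2.12 ± 0.18 and -2.18 ± 0.33 against Sub-ASCs.

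In each branch that leaves glycolysis more genes fell than rose in PVASCs against either other depot. In PVASCs against Ab-ASCs, 1 rose and 5 fell in the pentose phosphate pathway and 3 rose and 7 fell for pyruvate entry. In glycogen handling and gluconeogenesis 0 rose and 6 fell there, beside 24.7% of all genes higher and 32.1% lower. Ab-ASCs against Sub-ASCs were mixed. Pyruvate entry gave 5 higher and 5 lower and glycogen handling 2 and 6, beside 37% and 38.3% of all genes. In the pentose phosphate pathway, which yields NADPH and ribose, 5 of 8 genes rose and 1 fell in Ab-ASCs against Sub-ASCs, and 2 rose and 4 fell in PVASCs against Sub-ASCs. The share called, 75% in each, lay near that of all genes, 75.3% and 70.4%. G6pdx, Pgd and Taldo1 were all highest in Ab-ASCs, as Pkm, Pgk1, Pgam1, Eno1 and Aldoa were, and Taldo1 reached 274, 231 and 234 CPM there against 85.3 to 96.8 in Sub-ASCs and 168 to 176 in PVASCs. For entry of pyruvate to mitochondria, 5 of 13 genes rose and 6 fell in PVASCs against Sub-ASCs, beside 34.7% of all genes higher and 35.7% lower. Pdk2 and the phosphatase Pdp2 were highest in Sub-ASCs, as Pdk1 was, but Pdk4, the kinase of fasting, was highest in PVASCs, at 14.6, 16.8 and 14.4 CPM against 5.85 to 6.67 in Sub-ASCs and 3.38 to 4.35 in Ab-ASCs. In glycogen handling and gluconeogenesis 7 of 9 tested genes fell and 1 rose in PVASCs against Sub-ASCs, beside the same shares of all genes, led by Pygl, glycogen phosphorylase, at 170 to 179 CPM in Sub-ASCs, 62.0 to 65.2 in Ab-ASCs and 22.3 to 23.9 in PVASCs, and with Pgm2 and Ugp2 also highest in Sub-ASCs. The gluconeogenic genes Fbp1, Fbp2, Pck1 and G6pc each had no read in at least 1 depot.

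Among 9 regulators of glycolysis beyond the HIFs, 4 rose and 4 fell in PVASCs against Sub-ASCs, beside 34.7% of all genes higher and 35.7% lower. Mlxipl, the carbohydrate-responsive factor ChREBP, stood at 15.8 to 18.3 CPM in Sub-ASCs and at no more than 0.107 CPM in any Ab-ASC or PVASC library. Mycn, a member of the Myc family that drives growth, stood at 0.0393 to 0.214 CPM in Sub-ASCs, 6.97 to 7.40 in Ab-ASCs and 2.80 to 4.0 in PVASCs. Ppargc1a, a coactivator of mitochondrial genes, was low and highest in Sub-ASCs, at 1.87 to 2.55 CPM against 0.215 to 0.550 elsewhere.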

How the data were processed

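Total RNA of 9 libraries (3 per depot) was prepared with the NEBNext Ultra kit. The submitters' processing notes name CASAVA 1.8, Bowtie 0.12.2, featureCounts 1.5.0-p3 and the builds mm8 and mm10; strand setting and the handling of multi-mapping reads are not given in the sources used here. The authors deposited 1 table of raw read counts per gene, with gene lengths; gene positions equal those of GENCODE M21 (GRCm38) for 98.1% of all genes and 35 of the 37 members.

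Groups came from the tissue labels. Counts were fitted in edgeR 4.0.16 (R 4.3.3) with TMM scaling, filterByExpr, 1 coefficient per depot and no block, by the quasi-likelihood F-test with Benjamini-Hochberg adjustment at 0.05; the SE is the fold change over the root of F. CPM uses TMM library sizes, and FPKM is CPM per kilobase. Near-identical genes were found with BLAST+ 2.17.0 on GENCODE transcripts, excluding overlapping genes. Ratios of paired genes used a pseudocount of 0.5. The fit was also run on simulated data, with results not given here. Alternatives were other scalings and filters, DESeq2 1.42.0, a replicate block, a fold change minimum, the compared groups alone and leaving out each library. Library totals of 20524173 reads or more give a level of 3 reads under 0.161 CPM.

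The members and all lists were chosen with earlier results of these data known. All members are named, and from each related pathway list the 3 genes with the largest change past the threshold and genes at 0 in a depot, except for a gene that is not reported here; marker lists are given as sums. In the pathway lists, Epo (0 in Ab-ASCs and PVASCs) was at 0 too.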

Additional observations from a re-analysis of the deposited data

How the results depend on the processing

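The counts of called entries moved little with scaling, filter, tool or libraries. Leaving out each library gave 28 to 32 for PVASCs against Sub-ASCs, 29 to 32 for PVASCs against Ab-ASCs, 31 to 32 for Ab-ASCs against Sub-ASCs and 34 to 36 for the joint test, where the reported counts were 31, 31, 31 and 35. A required log2 fold change of 1 or more in size gave 15, 6, 14 and 19. Deviations of same-numbered libraries correlated at -0.112 to 0.195 over the 3 comparisons, which cannot show whether the replicate numbers pair the libraries. With a replicate block the counts were 31, 33, 31 and 35, the gains being Car9 and Ddit4. Among recomputed fold changes, 1813 kept their sign and their side of the threshold, 30 lost a call, 28 gained one and 10 changed sign. Of the recomputed ratios of paired genes, whose tests could not pass the threshold, 187 kept their sign and 2 changed it. Counts of calls stayed within 1.5 times the reported count in 67 cases, and the other 4 are those with the fold change minimum. All sign changes were in differences that were not called. The log2 fold change of Vhl in Ab-ASCs against Sub-ASCs became -0.0286 with at least 10 reads in every library required, and ran from -0.0714 to 0.0898 when single libraries were left out. Leaving out single libraries also turned Egln1 (-0.0507 to 0.0206) and Tpi1 (-0.0388 to 0.18) in the same comparison, Gapdh (-0.82 to 0.57) and the second Aldoa entry (-0.40 to 0.45) in PVASCs against Sub-ASCs, and Slc16a1 (-0.00398 to 0.0272) and the Eno2/Eno1 ratio (-0.0511 to 0.10) in PVASCs against Ab-ASCs. The cause was not tested. Adding the reads of near-identical genes, an alternative chosen after seeing the data, changed no count of calls, while Gapdh in Ab-ASCs against Sub-ASCs went from 2.91 to 0.74. Counting error limits Aldoc, Ankrd37, Car9 and the second Aldoa entry, the only members under 100 reads in some library.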
